A study of Arabidopsis thaliana with 6 samples.

Results

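Transporters that move sugars, phosphate, nitrogen, potassium, amino acids and water were looked up by gene symbol on oligonucleotide expression arrays of Arabidopsis thaliana wild type (WT), vip5 and vip6 plants. A probe set, the group of oligonucleotides that reads 1 transcript, was included if the platform annotation gave it a single symbol beginning with the family names SWEET, STP, SUC, PHT, PHO1, NRT, AMT, HAK, AAP, LHT, UMAMIT, PIP, TIP or NIP. AT3G05400 (ERD6-like sugar carrier) and AT1G69480 (PHO1 type) were added by locus. Both were picked with earlier results of these data known. The families were also chosen with those results known, so the counts below are not those of an unselected set. This gave 20 of the 22746 probe sets without controls. Of these, 14 were SWEET sugar carriers, and the others were AT3G05400, AT1G69480, the nitrate transporter gene NRT2.5 and 3 genes that share only the letters of a family name. Those 3 are SWEETIE, PIP, which here is a proline iminopeptidase and not an aquaporin, and PIPK11, a phosphoinositide kinase. No probe set was paired with a single STP, SUC, PHT, AMT, HAK, AAP, LHT, UMAMIT or TIP symbol, nor with an aquaporin of the PIP or NIP type, in the annotation used here. The set is thus a set of sugar carriers with single phosphate and nitrate members, and it says nothing about aquaporins, potassium or amino acid carriers.

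SWEET proteins are uniporters that let sugars pass down their gradient through the plasma membrane or the tonoplast. Clades I and II carry mainly glucose and other hexoses, clade III mainly sucrose, and clade IV sits in the tonoplast and carries fructose. In leaves, clade III proteins release sucrose from phloem parenchyma cells, from where SUC2, a proton symporter, loads it into the phloem. ERD6-like proteins are monosaccharide carriers, several of them in the tonoplast, and PHO1 exports phosphate into the root xylem for its transfer to the shoot.

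The study hybridised RNA of plants aged 3 weeks, with 2 arrays each for WT, the vip5 mutant and the vip6 mutant, and no treatment is named. VIP5 and VIP6 encode subunits of the plant Paf1 complex, which accompanies RNA polymerase II and is needed for expression of the flowering repressor FLC. Alleles, strain, tissue and growth conditions are not in the labels, and whether the arrays of a group are separate cultures of plants is not said, so p-values reflect the spread between these arrays alone. Values are the authors' linear intensities, scaled to a common trimmed mean of 500.04 to 500.05 on the 6 arrays, and they compare 1 probe set between arrays, not genes with each other. Hybridisation controls were 1.40 to 7.06 times as bright on the arrays numbered 2 as on those numbered 1, so the differences between same-numbered arrays are given for the members described in full. Log2 fold changes were taken after adding a pseudocount of 39.35 to each intensity, which understates changes of dim probe sets, and adjusted p-values come from a limma model of all 6 arrays with Benjamini-Hochberg adjustment over 14323 tested probe sets.

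To be tested, a probe set had to exceed the 40th percentile of its array, an intensity between 100.8 and 111.1, on at least 2 arrays. Of the 20 members, 13 met this, among them 9 SWEET carriers, AT3G05400, AT1G69480, SWEETIE and PIP. AT1G69480 met it only through the 2 WT arrays, so it could be tested only because it was brighter in WT than in the mutants. SWEET14 met it on both WT arrays and on 1 vip5 array, so its mutant arrays alone would not have brought it into the test. The other 7 members, SWEET3, SWEET6, SWEET7, SWEET8, SWEET9, NRT2.5 and PIPK11, were too dim. They lay between 2.5 and 127.5 on single arrays.

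**Figure D1:**
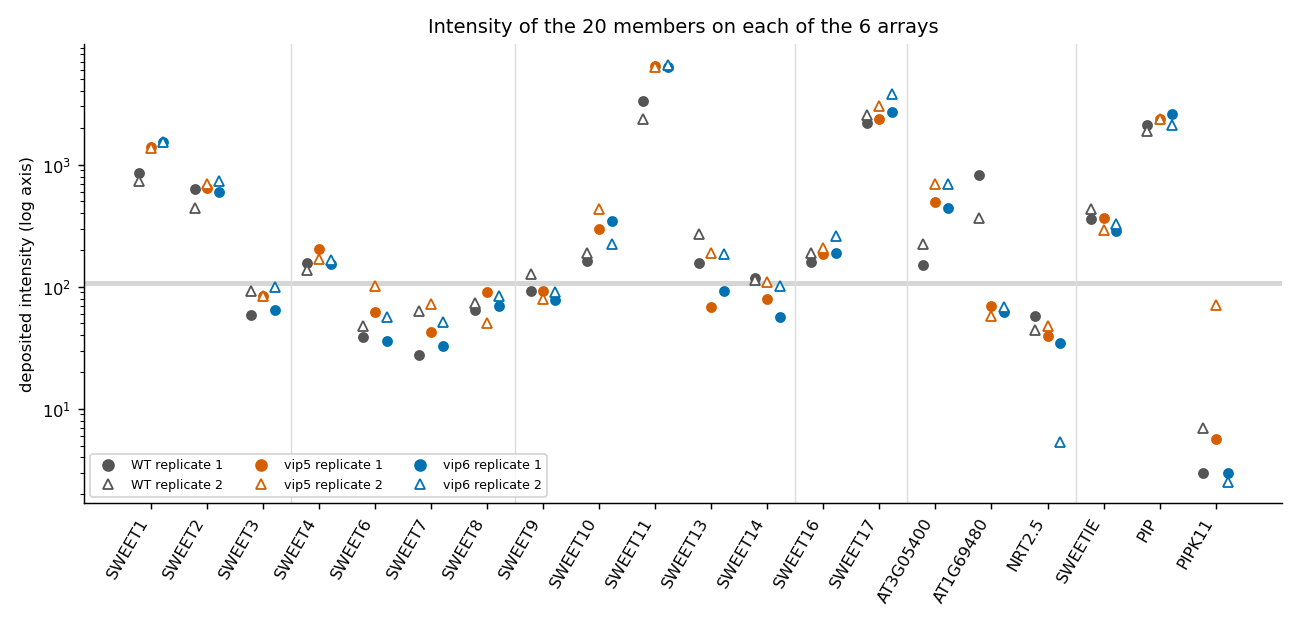
Deposited intensity (log axis) of the 20 members on each of the 6 arrays, with WT in grey, vip5 in orange and vip6 in blue, replicate 1 filled and replicate 2 open; the grey band is the 40th percentile of the arrays (100.8 to 111.1). The mutant points lie above both WT points for SWEET1, SWEET10, SWEET11 and AT3G05400 and, by small amounts, for PIP. They lie below both for AT1G69480, SWEET14 and the untested SWEET9.

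Which carriers differ when VIP5 or VIP6 is mutated was asked against WT. AT1G69480 was dimmer in both mutants, AT3G05400, SWEET11, SWEET1 and SWEET10 were brighter in both, and no member passed an adjusted limma p of 0.05 in either without a term for replicate number. With the number as a block, 3 members passed in vip5 and 4 in vip6, as described after the single genes. Of all tested probe sets 0.0768% passed in vip5 and 0.105% in vip6. At an unadjusted p of 0.05 there were 5 of 13 in vip5, against 10.9% of all tested probe sets, and 4 of 13 in vip6, against 9.88%. The 5 were AT1G69480, AT3G05400, SWEET1, SWEET10 and SWEET11, and the 4 were these without SWEET10. AT1G69480 and AT3G05400 were added by locus with earlier results of these data known, so only the SWEET genes among them were reached by family name. The families too were chosen with those results known, so none of these counts comes from an unselected set. AT1G69480 had to be lower to differ at all, since its WT arrays alone brought it into the test. The 10 transporters that also passed the brightness limit on a mutant array held 4 of the 5 in vip5 and 3 of the 4 in vip6. AT3G05400 is still in these counts. Both mutants are compared with the same 2 WT arrays, so the comparisons share their controls and the values of vip5 and vip6 stand side by side below without a test of their likeness.

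AT1G69480, AT3G05400 and SWEET11 differed from WT by 2-fold or more with no overlap of the arrays, in vip5 as in vip6. That is 3 of 13 in each mutant, where 1.46% of all tested probe sets met this in vip5 and 1.36% in vip6. Leaving out AT1G69480, whose direction the filter fixed, it is 2 of the 10 transporters bright enough on a mutant array. Of these, AT3G05400 was added by locus, like AT1G69480, with earlier results of these data known. Only SWEET11 was reached by its family name, and the families too were chosen with those results known. The count among the tested members was 1 in each mutant without WT replicate 2. SWEET11 then stayed under 2-fold and AT1G69480 was no longer bright enough to be tested. Without WT replicate 1, AT1G69480 again was not tested, and the count was 2 in vip5 (AT3G05400 and SWEET11) and 3 in vip6 (these and SWEET1). Both vip5 arrays lay above both WT arrays for 7 members, against 20% of tested probe sets, and below for 2, against 20.8%. In vip6, 7 members lay above, against 19.2%, and 3 below, against 20.8%. Of the 11 tested members that are transporters, 6 lay above and 2 below in each mutant. AT3G05400 is among those above. Those below are AT1G69480 and SWEET14, and neither would have been tested on its mutant arrays alone.

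The median log2 fold change of the 13 tested members was 0.23 in vip5, which is the value of PIP, and 0.30 in vip6, where that of all tested probe sets was -0.004 and -0.01. Among the 11 tested transporters it was 0.29 in vip5 and 0.32 in vip6, with 8 values above 0 and 3 below in each. Both vip6 medians were 0.18 without vip6 replicate 2, and the vip5 median of the transporters was 0.47 without WT replicate 1, where AT1G69480 was not tested. AT3G05400 and AT1G69480, added by locus with earlier results of these data known, are in both sets. Without them, the 9 tested SWEET carriers had medians of 0.29 in vip5 and 0.32 in vip6, with 7 values above 0 and 2 below in each. Their vip6 median was also 0.18 without vip6 replicate 2. These medians cover only members bright enough to be tested, and with no filter the median over all 20 members was 0.19 in vip5 and 0.09 in vip6.

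**Figure D2:**
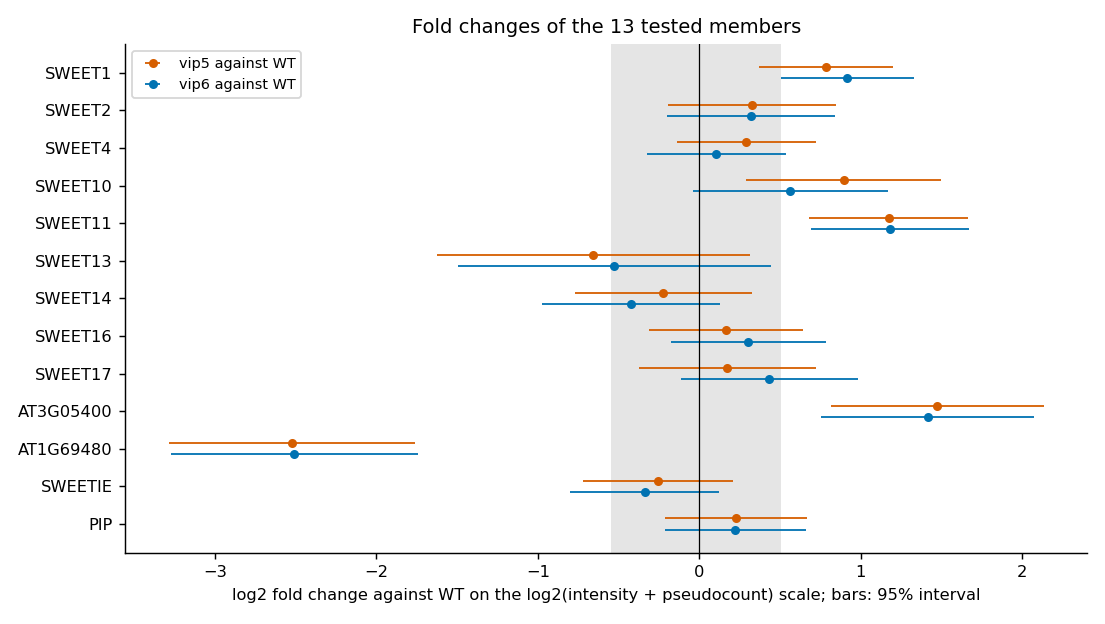
Log2 fold change against WT of the 13 tested members in vip5 (orange) and vip6 (blue). Bars are 95% intervals from the limma model, each for 1 probe set alone. The grey band holds the middle 90% of all tested probe sets in vip6 (-0.55 to 0.51). In vip5 the middle 90% is slightly wider (-0.57 to 0.52). AT1G69480 lies near -2.5 and AT3G05400 near 1.4 to 1.5 in both mutants, and the intervals of SWEET1 and SWEET11 lie above 0.

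AT1G69480 encodes a protein of the PHO1 family, whose founding member exports phosphate. Its intensity was 824.1 and 368 on the WT arrays, 69.8 and 58.1 on the vip5 arrays, and 62 and 67.9 on the vip6 arrays (replicates 1 and 2). All 4 mutant arrays lay far below both WT arrays and below the brightness needed for testing, and the WT arrays themselves differed more than 2-fold. The WT mean was 596 ± 323, that of vip5 64.0 ± 8.27 and that of vip6 65.0 ± 4.17 (SD, n = 2 each). The log2 fold change was -2.52 in vip5 (standard error 0.33, limma adjusted p = 0.0552). In vip6, with the same standard error, it was -2.51 (adjusted p = 0.0592). The size of this difference rests on the pseudocount, since the mutant arrays lie near it. With 4 times the pseudocount it was -1.70 in vip5 and -1.69 in vip6, and with 0.25 times -2.93 and -2.91. Within replicate number 1 the log2 differences were -2.98 in vip5 and -3.09 in vip6, and within number 2 they were -2.06 and -1.93. RNA of whole samples cannot tell fewer cells of the type that expresses a gene from less RNA per cell, here and for the members below.

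AT3G05400, of the ERD6-like monosaccharide carriers, had the highest log2 fold change of the 13 tested members in both mutants. It was picked with earlier results of these data known, so its ranks are not those of an unselected gene. It stood at 152 and 222.9 on the WT arrays, 491 and 691.8 on the vip5 arrays and 444.5 and 697.8 on the vip6 arrays. All 4 mutant arrays were thus about 2-fold or more above the brighter WT array. Means and SDs (n = 2 each) were 187 ± 50.1 for WT, 591 ± 142 for vip5 and 571 ± 179 for vip6. The log2 fold change was 1.47 in vip5 (standard error 0.28, limma adjusted p = 0.145) and 1.41 in vip6 (adjusted p = 0.157), number 18 from the highest in each mutant. The array numbered 2 was the brighter one in all 3 groups, and same-numbered arrays gave close values, with log2 differences of 1.47 and 1.48 in vip5 and of 1.34 and 1.49 in vip6.

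SWEET11 (AT3G48740), a clade III carrier that with SWEET12 exports sucrose from leaf phloem parenchyma, was a little over 2-fold brighter in both mutants. Its intensities were 3333.2 and 2367.8 in WT, in vip5 6397.1 and 6368.9, and in vip6 6284.2 and 6575.9. Values of the 4 mutant arrays lay close together, and the spread was on the WT side. Means and SDs (n = 2 each) were 2850 ± 683 for WT, 6383 ± 19.9 for vip5 and 6430 ± 206 for vip6. The log2 fold changes were 1.17 in vip5 (standard error 0.21, limma adjusted p = 0.133) and 1.18 in vip6 (adjusted p = 0.138), at ranks 46 and 47 from the highest. Same-numbered arrays differed by 0.93 and 1.41 in vip5 and by 0.91 and 1.46 in vip6 on the log2 scale.

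SWEET10 (AT5G50790), a clade III sucrose carrier that is known to be activated in leaf veins when plants begin to flower, was brighter in both mutants by less certain amounts. It was at 161.4 and 189.7 in WT, in vip5 at 296.3 and 434.1, and in vip6 at 344.9 and 222.2. No mutant array reached down to WT, but the second vip6 array came close. The log2 fold change was 0.89 in vip5 (standard error 0.26, limma adjusted p = 0.288) and 0.56 in vip6 (adjusted p = 0.536). In vip6 it was 0.29 without vip6 replicate 1 and 0.84 without vip6 replicate 2. The log2 differences of same-numbered arrays were 0.74 and 1.05 in vip5, and 0.94 and 0.19 in vip6.

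SWEET13 (AT5G50800) is the neighbour of SWEET10 in the TAIR10.1 gene table, with 0 protein-coding genes between them, and transports sucrose and gibberellin. Its mean was on the other side of WT. Intensities were 156.9 and 272.9 in WT, in vip5 68.8 and 189, and in vip6 91.5 and 186.7. In each group the array numbered 2 was the brighter, by 1.74 times in WT, 2.75 times in vip5 and 2.04 times in vip6, and the groups overlapped. Log2 fold changes were -0.66 in vip5 (limma adjusted p = 0.629) and -0.53 in vip6 (adjusted p = 0.752). Same-numbered arrays differed by -0.86 and -0.45 in vip5 and by -0.58 and -0.47 in vip6. Leaving out single arrays moved the value between -1.19 and -0.12 in vip5 and between -0.92 and -0.13 in vip6, with the ends given by the mutant arrays.

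SWEET14 (AT4G25010), the closest relative of SWEET13, was near the brightness limit and passed it on both WT arrays, 1 vip5 array and no vip6 array. It was at 117.5 and 114.3 in WT, in vip5 at 79.9 and 109.2, and in vip6 at 56 and 101.3, so that all mutant arrays lay below both WT arrays. The log2 fold change was -0.22 in vip5 (limma adjusted p = 0.791) and -0.42 in vip6 (adjusted p = 0.613), and without the first mutant array it was -0.06 and -0.14. SWEET9 (AT2G39060) is the nectary sucrose carrier and the last clade III gene in the set, which does not hold SWEET12. It was too dim to be tested, since only 1 array passed, WT replicate 2 at 127.5. Its other 5 arrays ranged from 78 to 92.1.

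Of clade I, SWEET1 (AT1G21460), a glucose carrier of the plasma membrane, showed a clear separation of the groups. It was at 854.1 and 732.2 in WT, in vip5 at 1403.9 and 1380.3, and in vip6 at 1534.3 and 1522.9. The mutant pairs differed by far less than the WT pair, and both vip6 arrays also lay above both vip5 arrays. Means and SDs (n = 2 each) were 793 ± 86.2 for WT, 1392 ± 16.7 for vip5 and 1529 ± 8.06 for vip6. The log2 fold changes were 0.79 in vip5 (standard error 0.18, limma adjusted p = 0.187) and 0.92 in vip6 (adjusted p = 0.157), at ranks 238 and 116 from the highest. Same-numbered arrays differed by 0.69 and 0.88 in vip5 and by 0.82 and 1.02 in vip6.

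SWEET2 (AT3G14770), a tonoplast carrier known to limit glucose loss from roots, differed by which WT array it was set against. Intensities were 629.8 and 439.3 in WT, in vip5 640.7 and 699.9, and in vip6 601.7 and 737.6. Against the first WT array the mutants were level with it, at log2 differences of 0.02 and -0.06, and against the second they were brighter, at 0.63 and 0.70. The log2 fold changes of 0.33 in vip5 and 0.32 in vip6 (limma adjusted p = 0.655 and 0.702) became 0.08 in each without WT replicate 2. SWEET3 (AT5G53190) was too dim on all 6 arrays, from 58.7 to 100.4.

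The clade II genes were dim. SWEET4 (AT3G28007), a hexose carrier of veins, was the only one tested, at 155.4 and 136.1 in WT, in vip5 at 205.1 and 170.3, and in vip6 at 152.7 and 166.8. Its log2 fold change was 0.29 in vip5 (limma adjusted p = 0.626) and 0.11 in vip6 (adjusted p = 0.912), with ranges of 0.18 to 0.40 and 0.031 to 0.18 when single arrays were left out. SWEET6 (AT1G66770) was at 38.7 and 47.5 in WT, in vip5 at 62.1 and 100.7, and in vip6 at 36.2 and 56.8, below the limit for a test throughout. Its vip5 arrays lay above its WT arrays and its vip6 arrays on either side of them. SWEET7 (AT4G10850) ranged from 27.5 to 72.5 and SWEET8 (AT5G40260), which is needed for pollen development, from 50.4 to 90.6, each with overlapping groups.

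The clade IV genes SWEET16 and SWEET17 encode vacuolar carriers, and SWEET17 is known as a fructose carrier of leaf and root vacuoles. SWEET17 (AT4G15920) was at 2204.1 and 2540.5 in WT, in vip5 at 2351.8 and 3042.6, and in vip6 at 2701.7 and 3817.2. The vip6 arrays lay above both WT arrays and the vip5 arrays did not. Its log2 fold change was 0.17 in vip5 (limma adjusted p = 0.847) and 0.43 in vip6 (adjusted p = 0.60). In vip6 it was 0.68 when replicate 1 of that mutant was left out and 0.19 when replicate 2 was, and the vip5 value ranged from -0.0088 to 0.36 with single arrays left out. SWEET16 (AT3G16690) was at 158.3 and 187.5 in WT, in vip5 at 187.2 and 209.3, and in vip6 at 189 and 259.9, and its log2 fold change was 0.16 in vip5 (limma adjusted p = 0.831) and 0.30 in vip6 (adjusted p = 0.691). With single arrays left out these lay in vip5 between 0.065 and 0.26, in vip6 between 0.11 and 0.50. For both genes the array numbered 2 was the brighter in every group.

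NRT2.5 (AT1G12940), a high-affinity nitrate transporter typical of nitrogen-starved plants, was too dim to be tested. It was at 57.7 and 44.5 in WT, in vip5 at 39.8 and 47.6, and in vip6 at 34.8 and 5.3. The vip6 arrays lay below the other 4, at intensities too low for a firm order. With no filter on brightness its log2 fold change was -0.12 in vip5 (limma adjusted p = 0.942) and -0.65 in vip6 (adjusted p = 0.579).

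Of the 3 genes that are no transporters, SWEETIE (AT1G67140), which encodes a large protein that affects carbohydrate metabolism, was at 359.7 and 433 in WT, in vip5 at 362.9 and 289.5, and in vip6 at 285.1 and 324. Its log2 fold changes were -0.26 and -0.34 (limma adjusted p = 0.701 and 0.638), and with single arrays left out they lay in vip5 between -0.40 and -0.11, in vip6 between -0.46 and -0.22. PIP (AT2G14260), the proline iminopeptidase, was at 2114 and 1905 in WT, in vip5 at 2358.2 and 2355.4, and in vip6 at 2603.3 and 2120.2, and its log2 fold change was 0.23 in vip5 (limma adjusted p = 0.721) and 0.22 in vip6 (adjusted p = 0.770). With single arrays left out it lay in vip5 between 0.15 and 0.30, in vip6 between 0.078 and 0.37. Its mutant arrays lay above both WT arrays by small amounts. PIPK11 (AT1G01460) lay between 2.5 and 6.9 on 5 arrays and at 70.8 on the second vip5 array.

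**Figure D3:**
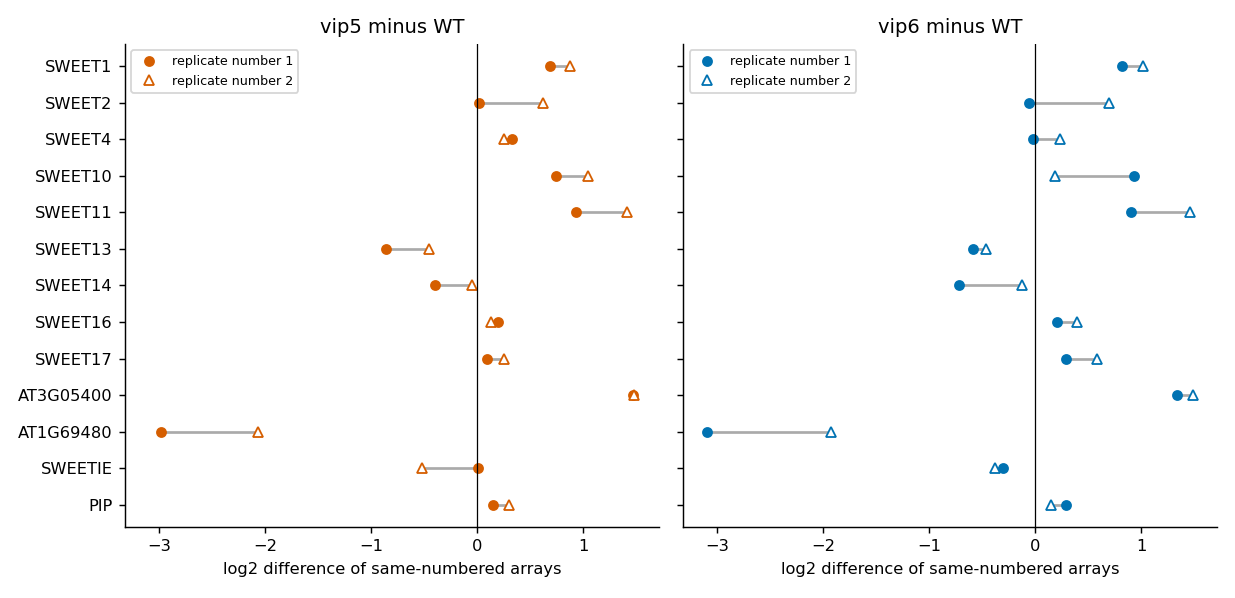
Log2 difference between same-numbered mutant and WT arrays of the 13 tested members, number 1 as filled circles and number 2 as open triangles, for vip5 (left) and vip6 (right). All 4 differences lie on one side of 0 for 10 of the 13, where 40.1% of all tested probe sets have this. Among the 10 transporters above the brightness limit on a mutant array it is 8. This leaves out AT1G69480 but holds AT3G05400, added by locus with earlier results known. It also holds SWEET14, whose mutant arrays alone would not have brought it into the test. Both mutants share the same WT arrays. The exceptions are SWEET2, SWEET4 and SWEETIE, and SWEET2 lies near 0 in number 1 and above 0.6 in number 2.

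Replicate number was followed across the groups because the controls differed by it. Number 2 was brighter than number 1 in all 3 groups for 4 of 13 tested members, AT3G05400, SWEET13, SWEET16 and SWEET17, against 21.2% of all tested probe sets, and dimmer in all 3 for SWEET1 and PIP, against 21.6%. With the number as a block, AT1G69480, AT3G05400 and SWEET11 passed an adjusted limma p of 0.05 in vip5, 3 of 13 against 2.19% of all tested probe sets. In vip6 the same genes and SWEET1 passed, 4 of 13 against 1.77%. Without AT1G69480, which its WT arrays alone brought into the test, this is 2 of 10 transporters in vip5 and 3 of 10 in vip6. AT3G05400, added by locus with earlier results of these data known, is still in both counts. Reached by family name were SWEET11 in vip5, and SWEET1 and SWEET11 in vip6, from a family also chosen with those results known. The labels do not say what the numbers mark, so the fits without the block remain the main ones.

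The mutants were set against each other to ask which carriers depend on the gene mutated. No member passed the limma test, as no probe set did (0%), none had an unadjusted p under 0.05 (1.54% of all tested probe sets), and the lowest was 0.240 for SWEET10. The log2 difference, vip6 minus vip5, was -0.33 for SWEET10, where the 95% interval, computed for this probe set alone, ran from -0.93 to 0.27. For AT1G69480 it was 0.02 (interval -0.75 to 0.78), and its mutant arrays lie near the pseudocount, where this scale hides a difference. The difference was -0.06 (-0.72 to 0.60) for AT3G05400, 0.01 (-0.48 to 0.50) for SWEET11 and 0.13 (-0.28 to 0.54) for SWEET1. With intervals this wide, the mutants are not shown to be alike.

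SWEET1 was the 1 tested member whose vip6 arrays both lay above the vip5 arrays, against 12.2% of all tested probe sets, and SWEET4 the 1 with both below, against 13.4%. None of the 13 differed 2-fold without overlap (0.0559% did), and none passed with the block (0.00698%).

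**Figure D4:**
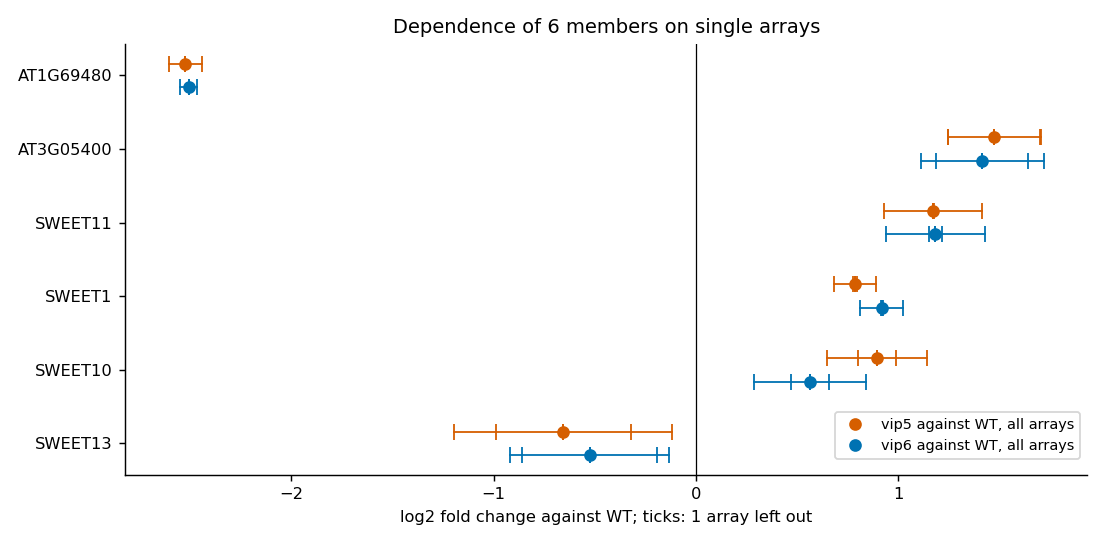
Log2 fold change against WT of 6 members in vip5 (orange) and vip6 (blue), with all arrays as points and with 1 array left out as ticks. AT3G05400, SWEET11 and SWEET1 keep clear of 0, SWEET13 comes within 0.12 of it, and AT1G69480 has no ticks for a left-out WT array because it was then too dim to be tested.

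Other genes of sugar and nutrient handling came from 7 lists with 146 loci, of which 8 had a named probe set and 5 met the brightness limit. All 5 belong to the sugar list, and 0 of them passed the limma test in either direction in either mutant, where 0.0768% of all tested probe sets did in vip5 and 0.105% in vip6, so a count of 0 among 5 says little. The vacuolar invertase gene AT1G62660 had log2 fold changes of -0.38 in vip5 and -0.32 in vip6. The tonoplast sugar carrier genes TMT1 and TMT2 had -0.31 and 0.09 in vip5, and in vip6 they had -0.17 and 0.08. SFP1 and SFP2, which like AT3G05400 encode ERD6-like carriers, had 0.08 and -0.35 in vip5, and in vip6 0.16 and -0.18. Of the 3 ERD6-like genes tested here only AT3G05400 had a 2-fold difference, but it was picked by locus with earlier results known. TMT1 was dimmer on number 2 than on number 1 in every group, at 1037.4 and 787.5 in WT, in vip5 at 1085.3 and 476, and in vip6 at 1165.3 and 544.5.

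The tissue is not labelled, and of 20 marker loci for root, leaf, flower, seed and phloem 5 were named by a probe set. The leaf genes RCA, LHCB4.1 and LHCB4.2 lay between 13593.7 and 46439.9 on all 6 arrays, with overlapping groups. Each of these was brighter on the array numbered 2 in every group, as for RCA at 24526.6 and 46439.9 in vip5. The anther gene A9 lay between 143.7 and 199. EXPA7, a root hair expansin, was too dim to be tested, at 51.1 and 33 in WT, in vip5 at 15.2 and 6.9, and in vip6 at 10.7 and 10.3. Its mutant arrays lay below both WT arrays, but also below the pseudocount of 39.35, at intensities too low for a firm order. Fitted without the brightness limit, EXPA7 did not pass the threshold (limma adjusted p = 0.388 for vip5, 0.413 for vip6). It was the only 1 of 5 root loci with a named probe set. A part of root tissue in the lower AT1G69480 values was not tested.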

How the data were processed

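The members and the gene lists were chosen with earlier results of these data known. The authors' deposited table holds linear intensity values of 22810 probe sets on 6 arrays. The sources used here do not name the software that made it. The trimmed means (2% left out at each end) differed by 0.00135%, so the deposited intensities were used without further normalization. Groups and replicate numbers came from the sample titles. Names came from the platform annotation, with loci through gene identifiers in the TAIR10.1 gene table, where all 20 members matched.

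After 64 control probe sets were left out, log2(intensity + 39.35) was fitted with limma 3.58.1 in R 4.3.3 as 3 group means over 6 arrays (3 residual degrees of freedom, eBayes, two-sided), and adjusted over all 14323 tested probe sets. As pseudocount served the 25th percentile of intensity, taken as its median across arrays. The model was tested on simulated data. Named by rule were members past the threshold, those at 2-fold without overlap, and the 3 largest mean changes in each class, which are AT1G69480, AT3G05400, SWEET1 and SWEET11. The other members' values were chosen for description after they were seen. The alternatives were normalization, pseudocount, brightness filter, variance model, arrays in the fit, block, threshold and single arrays left out. The number of arrays limits the precision. Figures were drawn with matplotlib 3.10.9.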

Additional observations from a re-analysis of the deposited data

How the results depend on the processing

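Without the block, the count of members past an adjusted p of 0.05 was 0 in vip5 and 0 in vip6 under quantile normalization, 4 times the pseudocount, no filter, a stricter filter and a fit of 2 groups only, and with each array left out (0 to 0). It was 1, AT1G69480, in both mutants with an intensity trend in the variance (adjusted p = 0.0431 and 0.0424) and at a threshold of 0.1, and 1 in vip6 with 0.25 times the pseudocount (adjusted p = 0.0477; 0.0580 in vip5). For vip6 against vip5 it was 0 under every alternative run. The replicate block gave 3 in vip5 and 4 in vip6, with adjusted p of 0.00657 and 0.00625 for AT1G69480, 0.00692 and 0.00833 for AT3G05400, 0.0237 and 0.0249 for SWEET11, and 0.0507 and 0.0358 for SWEET1. Number 2 minus number 1, over the tested probe sets, had correlations of 0.306 (WT with vip5), 0.308 (WT with vip6) and 0.655 (vip5 with vip6), which does not establish a pairing. Members at 2-fold without overlap numbered 3 in each mutant under the other normalization, both pseudocounts and both filters, and 1 to 4 in vip5 and 1 to 3 in vip6 with single arrays left out, an alternative chosen after seeing the data. With single arrays left out, signs differed for SWEET17 in vip5 (-0.0088 to 0.36) and, for vip6 minus vip5, in SWEET13 (-0.41 to 0.67), SWEET11 (-0.022 to 0.043), SWEET14 (-0.48 to 0.080), AT1G69480 (-0.066 to 0.097), SWEET2 (-0.15 to 0.13), SWEET16 (-0.056 to 0.33), AT3G05400 (-0.36 to 0.24), SWEETIE (-0.23 to 0.062) and PIP (-0.15 to 0.14), none past the threshold. The causes were not tested. The table holds no background values, so no detection limit can be given for dim members.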
